A study of Mus musculus with 6 samples.

Results

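The 6 genes described here are Ly6a, Ly6a2, Ly6c1, Ly6c2, Ly6d and Ly6e, members of the mouse Ly6 family of surface antigens, followed across 3 control and 3 focused ultrasound libraries of splenic CD8 T cells. They were found by gene symbol among the 17744 genes of the authors' full table, and all 6 were among the 10655 genes that passed the filter on low values. They were chosen on the expression values of this same comparison, so their own values are a description and carry no test. The mouse spleen cells had been sorted for CD45, CD3 and CD8a (CD45+ CD3+ CD8a+), and the strandedness and read length of the libraries are not given in the sources used here. Control libraries carry the genotype label wt and the treatment label control. Ultrasound libraries carry the treatment label fus irradiation, and their genotype field repeats that phrase instead of a genotype. Strain, age, dose, the interval after treatment and any batch are not given in the sources used here, nor is it stated that the 3 libraries of a group came from separate animals, so p-values measure only the spread between these samples. The series title places the question in immune activation by focused ultrasound of the spleen.

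Ly6 proteins are small, cysteine-rich proteins with a fold of finger-like loops that are held on the outer face of the membrane by a glycosylphosphatidylinositol (GPI) anchor. On T cells several of them are used as surface markers of state: Ly6A, also called Sca-1, and Ly6C are more abundant on activated and memory CD8 T cells than on naive ones, and Ly6A and Ly6E are induced by interferon. The same genes are used by other spleen cells, since Ly6C is a standard marker of inflammatory monocytes and Ly6D, also called ThB, marks the B lineage.

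Reads recovered from the deposited values numbered 35024080 to 35297644 in the controls and 35204096 to 38113103 in the ultrasound libraries. The libraries within the ultrasound group were unequal: ultrasound 2 and 3 differed from each other less than they differed from ultrasound 1 (chi-square divided by its degrees of freedom, 22.6 against 135 and 148). By the same measure ultrasound 1 differed less from control 1, 2 and 3 (56.1, 82.1 and 105) than from ultrasound 2 or 3. No pair of libraries agreed within sampling noise (lowest value 20.5), and each was counted as its own replicate. The markers of CD8 T cells were present at similar summed levels throughout, 2404, 2516 and 2500 FPKM in the controls and 2087, 2727 and 2495 in the ultrasound libraries. FPKM is the number of fragments scaled by gene length and by library size, so levels of different genes can be set beside each other. In bulk libraries, fewer cells of a type and less RNA per cell cannot be told apart.

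All 6 genes lie in the Ly6 cluster on chromosome 15, which in RefSeq's annotation of GRCm38.p6 runs from Psca to Gpihbp1 (chr15:74714839-75598213, 883 kb) and holds 45 annotated genes, 29 of them protein coding. Ly6d (chr15:74762056-74763567), Ly6e (chr15:74955025-74959904) and Ly6a (chr15:74994877-74998031) come first, followed by Ly6c1 (chr15:75044018-75048920), Ly6c2 (chr15:75108161-75112066) and Ly6a2 (chr15:75131292-75135128). Promoter windows of 300 bases, from 250 before to 50 after a transcript start, were found for 3 of the 6 in RefSeq's table for GRCm38.p6: Ly6a2, Ly6c1 and Ly6c2. They are shown because they are close copies whose transcripts differed in level and in change in these libraries. The Ly6a2 and Ly6c2 windows were identical at 290 of 295 aligned bases (98.3%), whereas Ly6c1 shared 76.3% of aligned bases with Ly6a2 and 78.2% with Ly6c2. The Ly6a2 window starts at the end of the annotated gene, but the Ly6c1 and Ly6c2 windows use a transcript start inside it, so that 83 and 95 of their 250 bases before that start lie within the gene. The bases of each window ahead of the annotated gene (250 for Ly6a2, 167 for Ly6c1 and 155 for Ly6c2) are printed 5′ to 3′ on the minus strand, with capitals marking the motif matches described after them.

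Ly6a2, chr15:75135129-75135378: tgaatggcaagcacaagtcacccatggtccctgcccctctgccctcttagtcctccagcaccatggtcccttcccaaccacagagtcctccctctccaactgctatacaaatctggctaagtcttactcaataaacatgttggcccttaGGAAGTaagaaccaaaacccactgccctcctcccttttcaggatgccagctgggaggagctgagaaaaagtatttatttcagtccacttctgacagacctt
Ly6c2, chr15:75112067-75112221: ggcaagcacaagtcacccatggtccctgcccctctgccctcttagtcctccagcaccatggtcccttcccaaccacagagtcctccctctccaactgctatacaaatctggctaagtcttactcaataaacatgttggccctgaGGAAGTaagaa
Ly6c1, chr15:75048921-75049087: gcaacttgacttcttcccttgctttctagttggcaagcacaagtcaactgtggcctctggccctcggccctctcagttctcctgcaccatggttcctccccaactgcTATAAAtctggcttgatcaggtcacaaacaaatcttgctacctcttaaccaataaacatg

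A short set of motifs was searched in the 300-base windows on both strands: the STAT motif TTCNNNGAA, a core of the interferon-stimulated response element (GAAA, any 2 bases, GAAA), the TATA motif TATAAA and an ETS core GGAAGT. Ly6a2 held the ETS core at -101 and 29 from the start and Ly6c2 at -106 and 29, while Ly6c1 held TATAAA at -143. Among all 32851 windows of this length, 23.8% held the ETS core and 13.6% held TATAAA. The STAT motif and the interferon core, present in 8.30% and 3.44% of all windows, matched none of the 3. These matches describe letters in a window and are not measured binding.

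Ly6c2, Ly6e and Ly6a were among the most abundant transcripts of the cells, and Ly6a2 and Ly6c1 were scarce. By mean FPKM over the 6 libraries, Ly6c2 ranked 139, Ly6e 147, Ly6a 294, Ly6d 805, Ly6a2 5567 and Ly6c1 7064 among the 17744 genes. In each of the 3 controls the order of levels was Ly6c2, Ly6e, Ly6a, Ly6d, Ly6c1 and Ly6a2, and no neighbouring ranges overlapped. In the ultrasound libraries the low end was exchanged, with Ly6a2 above Ly6c1 in all 3. There, Ly6e exceeded Ly6c2 in ultrasound 1 and ultrasound 3 but not in ultrasound 2, and the ranges of these neighbours overlapped. Those of Ly6a and Ly6d also met, at 152 and 153 FPKM, although Ly6a was the higher in each library. The ranges of Ly6d and Ly6a2 overlapped as well, with Ly6d at 23.9 FPKM in ultrasound 1 and Ly6a2 at 25.6 FPKM in ultrasound 3. Together the 6 genes took 0.150%, 0.139% and 0.150% of recovered reads in the controls and 0.148%, 0.241% and 0.252% in the ultrasound libraries, so their summed share in ultrasound 1 lay within the control range.

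Ly6a2, a close relative of Ly6a named I830127L07Rik in GENCODE M21, showed the widest separation of the 6. Its level was 2.62, 1.51 and 1.59 FPKM in control 1, 2 and 3 and 12.6, 15.1 and 25.6 FPKM in ultrasound 1, 2 and 3, from 84, 48 and 51 reads and 401, 514 and 884 reads. The lowest ultrasound library was several times the highest control. The mean went from 1.91 ± 0.620 FPKM to 17.7 ± 6.89 FPKM (SD, n = 3 each), a ratio of 9.30. As a difference of log2(FPKM + 1), a scale that shrinks changes at low levels, it was 2.65 with a standard error of 0.27, and each ultrasound library lay 2.24, 2.49 and 3.21 above the control mean. This standard error and those that follow are from the limma fit, which moderates a gene's own spread by that of all tested genes. Ultrasound 1, which lay near the controls for most of the other Ly6 genes, was clearly apart from them for Ly6a2.

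Ly6a, which encodes Sca-1, had a level far above that of Ly6a2 and a smaller difference. Its level was 157, 107 and 109 FPKM in the controls and 152, 249 and 239 FPKM in the ultrasound libraries. The groups overlapped, because ultrasound 1 lay below control 1. The means were 124 ± 28.1 FPKM and 213 ± 53.4 FPKM (SD, n = 3 each), a ratio of 1.71 and a log2 difference of 0.76 with a standard error of 0.23. The ratio of Ly6a to Ly6a2 in FPKM did not overlap between the groups: it was 59.8, 70.8 and 68.7 in the controls and 12.1, 16.4 and 9.34 in the ultrasound libraries.

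Ly6c1 and Ly6c2 both encode the Ly6C antigen and differed widely in level. Ly6c1 was at 3.001, 2.78 and 4.63 FPKM in the controls and 5.50, 8.13 and 11.5 FPKM in the ultrasound libraries. All 3 ultrasound values lay above all 3 controls, with means of 3.47 ± 1.01 and 8.37 ± 2.99 FPKM (SD, n = 3 each), a ratio of 2.41 and a log2 difference of 1.04 with a standard error of 0.26. Ly6c2, the dominant copy, was at 324, 369 and 418 FPKM in the controls and 285, 504 and 495 FPKM in the ultrasound libraries. Here ultrasound 1 lay below every control, and ultrasound 2 and ultrasound 3 lay above every control. The Ly6c2 means were 370.1 ± 47.0 and 428 ± 124 FPKM (SD, n = 3 each), a ratio of 1.16 and a log2 difference of 0.17 with a standard error of 0.23, which is less than the spread between replicates. The ratio of Ly6c2 to Ly6c1 in FPKM was 108, 133 and 90.2 in the controls and 51.8, 62.0 and 43.1 in the ultrasound libraries, so the minor copy made up a larger share in each ultrasound library.

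Reads from these copies are partly interchangeable. Of the distinct 50-base stretches in GENCODE M21 transcripts, 32.8% of those of Ly6c1 also occurred in another gene, most of them in Ly6c2 (21.5%) or Ly6a (11.1%). The shares were 19.0% for Ly6a (15.03% with Ly6c1), 14.5% for Ly6c2 (13.9% with Ly6c1) and 9.58% for Ly6a2. For stretches of 100 bases they were 10.1% for Ly6c1, 5.81% for Ly6c2, 1.45% for Ly6a and 0 for Ly6a2. Ly6d and Ly6e shared no stretch of either length. How reads that match several genes were counted is not given in the sources used here. The values of Ly6c1, of which Ly6c2 and Ly6a are abundant copies, are therefore uncertain. Ly6a, Ly6a2 and Ly6c2 shared a smaller part of their stretches, but this measure leaves out the level of the other gene. Ly6a2 shared 2.49% of its 50-base stretches with Ly6a, which was 59.8 to 70.8 times as high in FPKM in the controls. The low control values of Ly6a2 are therefore uncertain too.

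Ly6d, the B lineage antigen ThB, gave the most uneven values. Its level was 49.9, 28.0 and 28.9 FPKM in the controls and 23.9, 153 and 144 FPKM in the ultrasound libraries. Ultrasound 1 lay below all 3 controls, while ultrasound 2 and ultrasound 3 lay far above them. The means were 35.6 ± 12.4 and 107 ± 72.1 FPKM (SD, n = 3 each), a ratio of 3.005 and a log2 difference of 1.22 with a standard error of 0.69. The coefficient of variation of Ly6d within the ultrasound group was 67.4%, against 24.3% to 38.8% for the other 5 genes. The B cell markers moved with it library by library. Their summed level was 391, 256 and 252.5 FPKM in the controls and 188, 975.5 and 845 FPKM in the ultrasound libraries. None of the 10 genes was at 0 in any library. None had all ultrasound values above all controls, beside 25.9% of all tested genes. With ultrasound 1 left out, 10 of 10 were higher by limma, beside 34.1% of all tested genes. Cd79a, a signalling chain of the B cell receptor, was at 126, 78.3 and 79.9 FPKM in the controls and 65.2, 339 and 299 FPKM in the ultrasound libraries. The part of B cell RNA in the Ly6d values was not tested.

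Ly6e, an interferon-induced member broadly expressed on lymphocytes, was the steadiest gene in the controls, with a coefficient of variation of 4.40% against 12.7% to 34.8% for the others. Its level was 302, 277 and 292 FPKM in the controls and 310.5, 469 and 506 FPKM in the ultrasound libraries. All ultrasound values lay above all controls, although ultrasound 1 did so by only a few percent. The means were 290.4 ± 12.8 and 429 ± 104 FPKM (SD, n = 3 each), a ratio of 1.48 and a log2 difference of 0.53 with a standard error of 0.19. The 3 ultrasound libraries stood 0.10, 0.69 and 0.80 above the control mean on that scale. Each value rests on 32227 reads or more, the largest read support of the 6 genes.

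**Figure D1:**
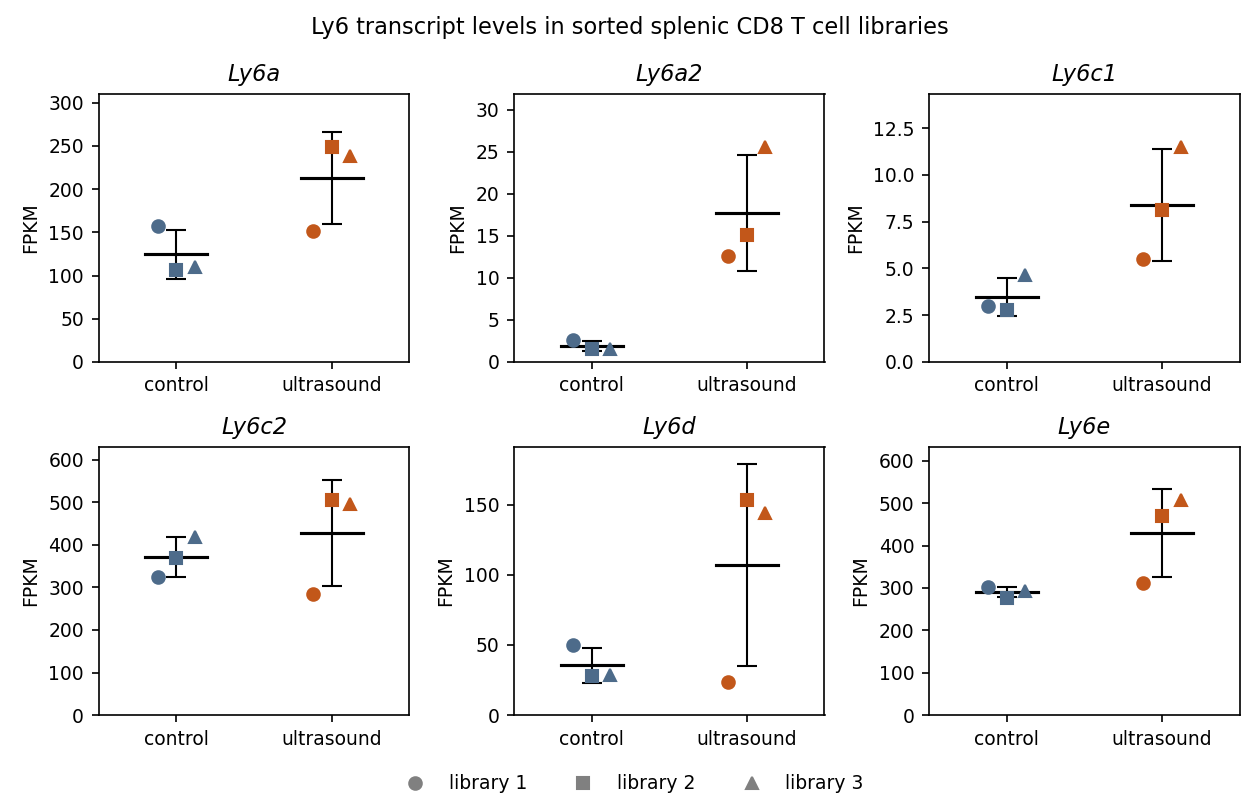
FPKM (y axis, linear, from 0) of the 6 Ly6 genes in the 3 control (blue) and 3 ultrasound (orange) libraries, with marker shape giving the library number, horizontal lines the group mean and whiskers ± 1 SD (n = 3). The groups are separate for Ly6a2, Ly6c1 and Ly6e, and ultrasound 1 is the lowest ultrasound value of every gene, at 23.9 FPKM against 153 and 144 for Ly6d.

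Across the whole table, limma on log2(FPKM + 1) gave 864 of 10655 genes an adjusted p under 0.05 (8.11%), of which 698 were higher (6.55%) and 166 lower (1.56%) in ultrasound libraries. The count was 5727 without ultrasound 1 (53.7%, with 34.1% of tested genes higher and 19.7% lower), 567 without control 1 and 0 without control 2, control 3, ultrasound 2 or ultrasound 3, so every gene called in the following paragraphs was lost when any of the last 4 was left out. Of the 6 Ly6 genes, 1 was among the 864, Ly6a2. All ultrasound libraries lay above all controls for 3 of the 6, Ly6a2, Ly6c1 and Ly6e, and for 2755 of all tested genes (25.9%), while the opposite held for none of the 6 and for 955 tested genes (8.96%). The median log2 difference of the 6 genes was 0.90, beside 0.09 for all tested genes, of which 61.7% had a positive value. In the order of log2 differences from lowest to highest, Ly6a2 stood at percentile 99.96, Ly6d at 97.4, Ly6c1 at 96.5, Ly6a at 93.8, Ly6e at 88.9 and Ly6c2 at 61.0. Because the genes were chosen with these values known, the counts and positions only describe them. In the authors' deposited table the log2 fold changes were 3.10 for Ly6a2, 1.46 for Ly6d, 1.14 for Ly6c1, 0.65 for Ly6a, 0.44 for Ly6e and 0.08 for Ly6c2, in the same order.

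The size of 5 of the 6 differences rested on ultrasound 2 and ultrasound 3. With ultrasound 1 left out, the log2 differences were 2.85 for Ly6a2, 2.08 for Ly6d, 1.28 for Ly6c1, 0.99 for Ly6a, 0.75 for Ly6e and 0.44 for Ly6c2, each larger than with all libraries. With ultrasound 1 alone against the 3 controls they were 2.24 for Ly6a2, 0.56 for Ly6c1, 0.31 for Ly6a, 0.10 for Ly6e, -0.37 for Ly6c2 and -0.50 for Ly6d. The sign of Ly6c2 and Ly6d therefore changed with the libraries used, and that of the other 4 genes did not. Scaling the libraries by median-of-ratios size factors lowered the median of all genes by 0.11 on the log2 scale, and the 6 differences were then 2.55 for Ly6a2, 1.10 for Ly6d, 0.94 for Ly6c1, 0.64 for Ly6a, 0.40 for Ly6e and 0.04 for Ly6c2.

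**Figure D2:**
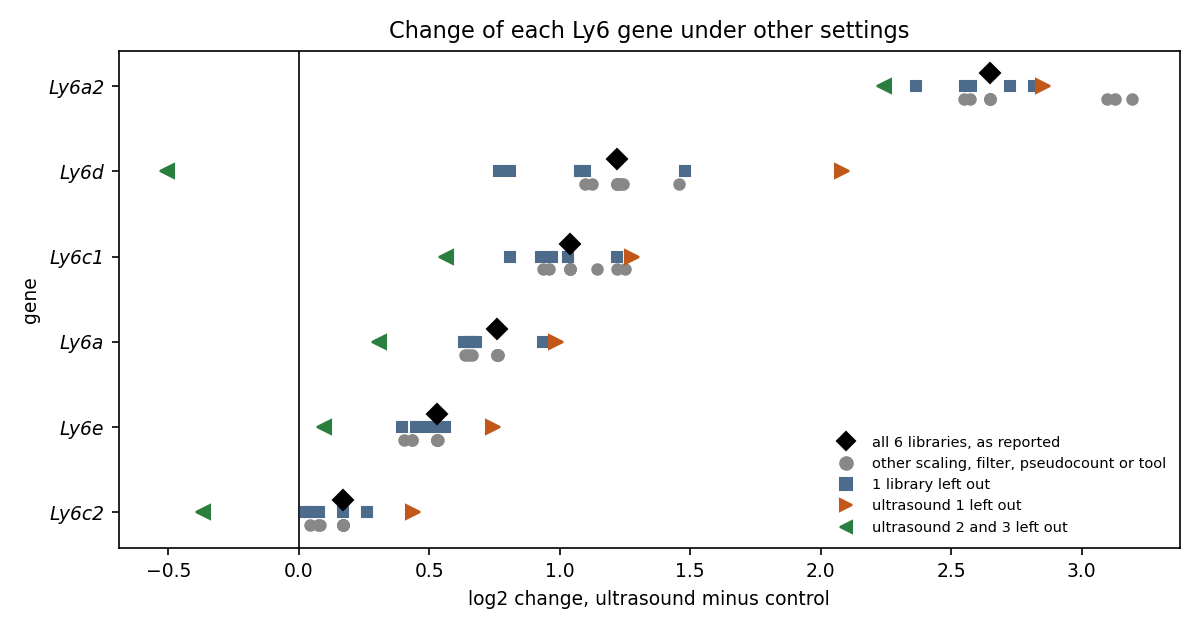
Log2 difference, ultrasound minus control (x axis), of each Ly6 gene (y axis) with all 6 libraries (black diamonds), under other scalings, filters, pseudocounts or tools (grey circles), with 1 library left out (blue squares, orange triangles for ultrasound 1) and with ultrasound 2 and 3 left out (green triangles). Ly6a2 stayed at 2.24 or higher under every setting drawn, whereas Ly6d reached from -0.50 to 2.08.

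Transcripts used as markers of other spleen cells that carry Ly6 antigens were present in the libraries, and several of their lists lay higher in the ultrasound group. All gene lists here and below were chosen with earlier results of these data known, so counts of their genes only describe them. Markers of monocytes and macrophages, cells that carry Ly6C, summed to 415, 243 and 210 FPKM in the controls and 665, 641 and 878 FPKM in the ultrasound libraries. Of these 14 genes 6 rose by limma, beside 6.55% of all tested genes, and 5 of 12 when only genes with FPKM of at least 1 in all 3 controls are counted, since Ms4a7 and Vcan entered the test through the ultrasound libraries. Among the 6 were Csf1r, the receptor of a macrophage growth factor (log2 difference 1.69, limma adjusted p 0.0362), and Ccr2, a chemokine receptor of inflammatory monocytes (1.42, limma adjusted p 0.0305). Neutrophil markers summed to 605, 199.7 and 202 FPKM in the controls and 2494, 699.9 and 733 FPKM in the ultrasound libraries, highest in ultrasound 1. Of these 12 genes 4 rose, and 2 of the 9 with all 3 controls at FPKM 1 or more, because Mmp8 and Cxcr2 had controls under that level. All ultrasound values lay above all controls for 12 of the 14 and 10 of the 12 genes of these lists (10 of 12 and 8 of 9 under the same restriction; 25.9% of all tested genes), with median log2 differences of 1.28 and 1.91.

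Ly6C is also carried by plasma cells, whose markers summed to 257, 209 and 178 FPKM in the controls and 457.5, 395.5 and 492 FPKM in the ultrasound libraries. Of the 7 tested, 5 rose and 1 fell by limma. In the same fit 6.55% of all tested genes rose and 1.56% fell, the shares to set beside each count of this paragraph. Sdc1, among the 5, reached FPKM 1 in control 1 alone of the controls and so entered the test through the ultrasound libraries. Jchain, the joining chain of secreted antibody, had a log2 difference of 1.29 (limma adjusted p 0.0312), and Irf4, a transcription factor of plasma cells and of activated T cells, a difference of -0.70 (limma adjusted p 0.0304). NK cell markers summed to 195, 107 and 125.5 FPKM in the controls and 269.5, 472 and 492 FPKM in the ultrasound libraries, with 2 of 7 higher by limma, both among the 5 genes with every control at FPKM 1 or more. Conventional dendritic markers summed to 86.2, 43.9 and 41.4 FPKM against 77.9, 162 and 160.0 FPKM, with 1 of 6 higher. Plasmacytoid dendritic markers, of cells that carry both Ly6C and Ly6D, summed to 121, 112 and 123 FPKM in the controls and 92.4, 149 and 153 FPKM in the ultrasound libraries. Bst2, also an interferon-response gene, gave 71.5, 65.3 and 77.9 FPKM of the control sums. Of the 10 genes listed 5 were tested, with a median log2 difference of -0.04 and a range from -0.27 to 0.81. Siglech, too low to be tested, was at 0.769, 0.395 and 0.311 FPKM in the controls and 0.0964, 1.46 and 1.23 FPKM in the ultrasound libraries.

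None of the marker genes of these lists was at 0 in any library. Erythroid markers went the other way in ultrasound 2 and 3 only, at 133, 83.2 and 92.0 FPKM in the controls and 112, 55.3 and 59.5 FPKM in the ultrasound libraries. The sum in ultrasound 1 lay within the control range. Their median log2 difference was -0.43, at 0.18, -0.83 and -0.71 in ultrasound 1, 2 and 3. Of 5 tested, limma called 0 (8.11% of all tested genes) and voom called 0. By limma 1 was lower at an unadjusted p under 0.05 (8.57% of all tested genes). CD4 T cell markers ranged from 209 to 237 FPKM in the controls and from 187 to 232 FPKM in the ultrasound libraries. By list median, the B cell, conventional dendritic and NK lists shared a library pattern with Ly6d. They were below the control mean in ultrasound 1 and above it in ultrasound 2 and 3. The medians were -0.61, 1.53 and 1.37 for B cells, -0.03, 1.39 and 1.20 for conventional dendritic cells and -0.16, 1.73 and 1.24 for NK cells. The summed NK level in ultrasound 1, however, was above every control. Such signs were not particular to these lists. CD8 T cell markers were at -0.21, 0.13 and 0.14, memory and effector CD8 genes at -0.01, 0.62 and 0.72, and Ly6c2 at -0.37, 0.45 and 0.43. The monocyte list, at 1.23, 1.02 and 1.40, and the plasma cell list, at 0.96, 0.94 and 1.29, stood above the control mean in all 3 ultrasound libraries. So did the neutrophil list, at 2.99, 1.42 and 1.46, and the CD4 T cell list, at 0.13, 0.12 and 0.26. Ly6a2, Ly6c1, Ly6a and Ly6e also stood above it in all 3. Some genes stood on more than 1 list: Gzma and Eomes on the NK and memory lists, Cx3cr1 on the monocyte and memory lists, Bst2 on the interferon and plasmacytoid lists and Ccr9 on the naive and plasmacytoid lists. Sorting on CD3 and CD8a, with a purity check by flow cytometry, preceded RNA extraction, and the part of RNA from any of these cells in the Ly6 values was not tested.

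**Figure D3:**
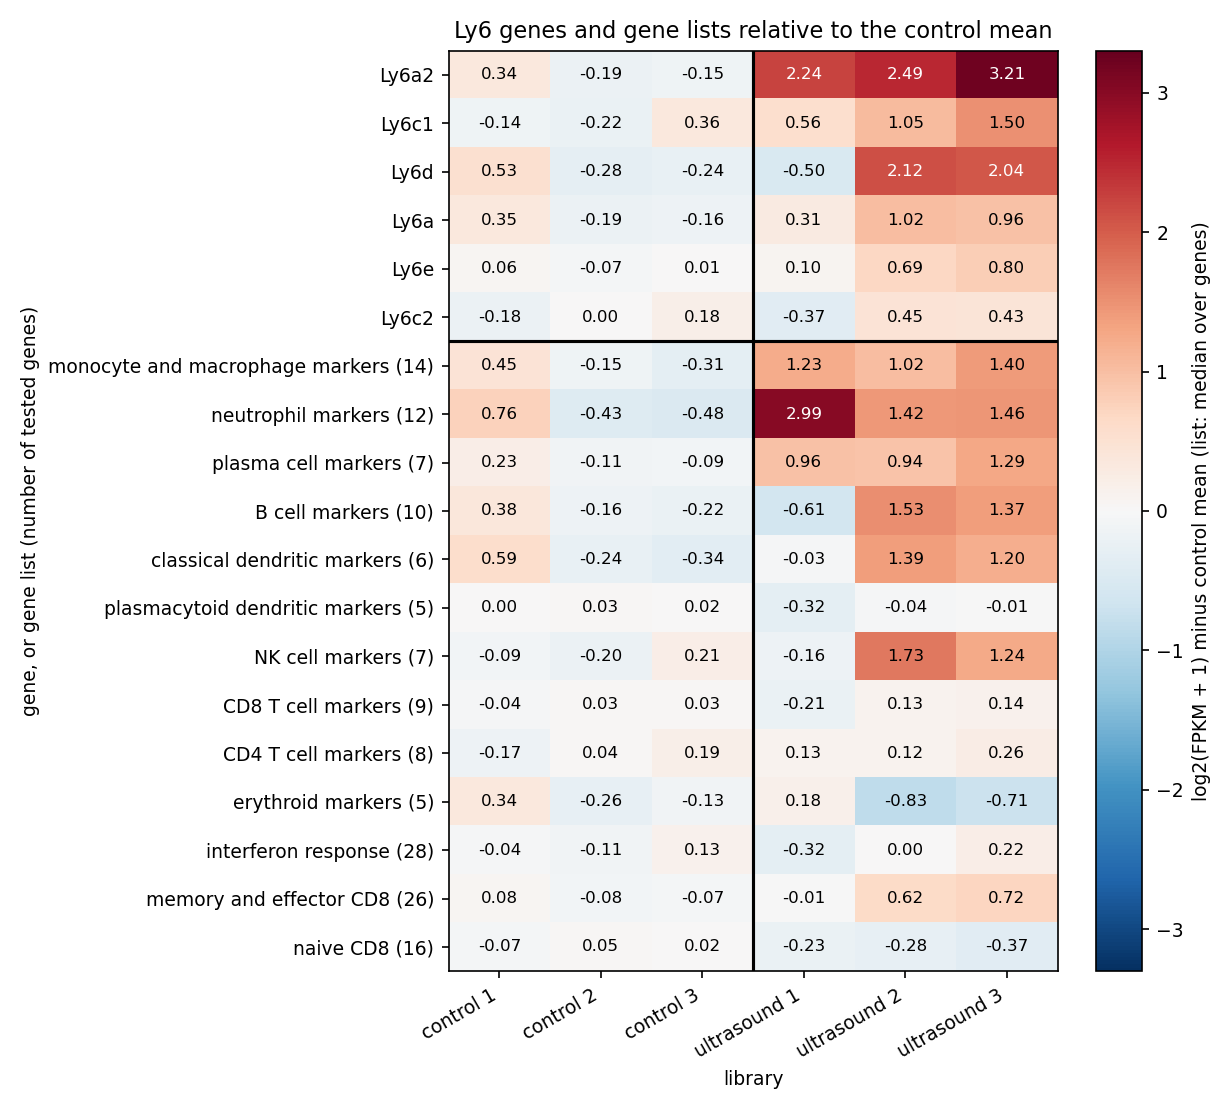
Heat map of log2(FPKM + 1) minus the control mean in each library (columns) for the 6 Ly6 genes and, as the median over the tested genes of a list, for cell type markers and function lists (y axis, number of genes in parentheses). Each cell prints its value; the B cell list, at -0.61, 1.53 and 1.37 in the ultrasound libraries, has the library pattern of Ly6d, at -0.50, 2.12 and 2.04.

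Genes of the programs in which Ly6 antigens take part were counted in the same all-gene fit. Of 28 interferon-response genes tested, 0 rose and 1 fell by limma, beside 6.55% and 1.56% of all tested genes. Irf1, a transcription factor of the interferon response, went from 193 ± 1.25 to 121 ± 12.1 FPKM (SD, n = 3 each; log2 difference -0.67, limma adjusted p 0.0304). No gene of that list was higher at an unadjusted p under 0.05, where 22.6% of all tested genes were higher, or by voom. None had all ultrasound values above all controls, beside 25.9% of all tested genes. The list's median was -0.01, at -0.32, 0.00 and 0.22 in ultrasound 1, 2 and 3. Ly6a and Ly6e, both inducible by interferon, lay at 0.31, 1.02 and 0.96 and at 0.10, 0.69 and 0.80 in the same libraries. Without ultrasound 1, 3 genes of the list were higher and 5 lower by limma, with a median of 0.12, and these 8 of 28 compare with 53.7% of all tested genes.

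Of 26 genes of memory and effector CD8 T cells, with a median log2 difference of 0.34, 5 rose and 0 fell by limma. The shares of all tested genes were 6.55% and 1.56%. The largest of the 5 were Anxa1 (2.05, limma adjusted p 0.0447) and Anxa2 (1.32, limma adjusted p 0.0297), annexins that bind membranes, and S100a4 (1.43, limma adjusted p 0.0311), a calcium-binding protein. All of these are also expressed by myeloid cells. The other two were Cd44, a hyaluronan receptor, and Gzmb, a cytotoxic granule protease, which are named after their values were seen. All ultrasound values lay above all controls for 9 of the 26 genes, beside 25.9% of all tested genes. They lay below all controls for 2, beside 8.96%. These 2 were Eomes and Klrd1 (log2 difference -0.52 each), also named after their values were seen. At an unadjusted p under 0.05 by limma, 9 were higher and 2 lower, beside 22.6% and 8.57% of all tested genes. The list's median by library was -0.01 in ultrasound 1, 0.62 in ultrasound 2 and 0.72 in ultrasound 3. Without ultrasound 1, 16 of 26 genes were higher and 2 lower, beside 34.1% and 19.7% of all tested genes. Of 16 genes of naive CD8 T cells, 0 rose and 1 fell, beside the same 6.55% and 1.56%. S1pr1, the receptor that guides exit from lymphoid organs, went from 156 ± 2.25 to 110.04 ± 9.003 FPKM (SD, n = 3 each; log2 difference -0.50, limma adjusted p 0.0320). The naive list had a median of -0.28, with 2 of 16 genes positive. For 7 genes all ultrasound values lay below all controls (8.96% of all tested genes). By limma 9 were lower at an unadjusted p under 0.05 (8.57% of all tested genes). Without ultrasound 1, 10 of 16 genes were lower, beside 19.7% of all tested genes.

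Ly6 proteins need a GPI anchor to reach the surface. Of 26 tested genes of anchor assembly, 1 rose and 0 fell by limma, beside 6.55% and 1.56% of all tested genes. Their median log2 difference was 0.15. Pigt, a subunit of the transamidase that attaches the anchor, went from 28.4 ± 0.244 to 46.4 ± 9.69 FPKM (SD, n = 3 each; log2 difference 0.67, limma adjusted p 0.0499). That call was lost under voom and with another pseudocount or scaling, and without ultrasound 1, 9 of 26 genes were higher and 3 lower, beside 34.1% and 19.7% of all tested genes. Mx1, Mx2 and Pigy, which also stood on these lists, were not analysed here.

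Further members of the Ly6 and uPAR family were mostly silent in these libraries. Of 36 such genes listed, 16 were in the table and 6 passed the filter on low values, while the other 10 stayed at 1.03 FPKM or less. By limma 0 of the 6 were called (8.11% of all tested genes) and 4 were higher at an unadjusted p under 0.05 (22.6%). Voom called 0, and the authors' deposited table has 2 with a q-value under 0.05. Ly6i, a monocyte-associated gene beside Ly6a, was at 1.37, 1.11 and 0.858 FPKM in the controls and 2.63, 8.51 and 13.9 FPKM in the ultrasound libraries, with a log2 difference of 1.93 (SE 0.48, limma adjusted p 0.0552). Its groups did not overlap, and its order over the ultrasound libraries was that of Ly6c1, Ly6a2 and Ly6e. Control 3 was under the filter's level, so Ly6i met the filter's 3 libraries only through the ultrasound libraries. Ly6g, the neutrophil antigen, was at 1.03, 0.458 and 0.484 FPKM in the controls and 2.82, 1.68 and 1.35 FPKM in the ultrasound libraries, a log2 difference of 0.82 (SE 0.22, limma adjusted p 0.0670). Of its controls only control 1 reached the filter's level, so Ly6g entered the test through the ultrasound libraries.

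Plaur, the urokinase receptor of myeloid cells, was at 22.3, 13.5 and 18.8 FPKM in the controls and 59.2, 26.3 and 41.4 FPKM in the ultrasound libraries, a log2 difference of 1.13 (SE 0.31, limma adjusted p 0.0672). Like Ly6g and unlike the 6 genes described here, it was highest in ultrasound 1. Lynx1, a modulator of acetylcholine receptors, was at 2.17, 1.35 and 1.61 FPKM and 1.58, 6.98 and 4.37 FPKM, a log2 difference of 0.84 (SE 0.39, limma adjusted p 0.190), with overlapping groups. Ly6k had a log2 difference of 0.62 (SE 0.26, limma adjusted p 0.156) and Lypd6b a log2 difference of -0.26 (SE 0.21, limma adjusted p 0.414). Without ultrasound 1, 4 of these 6 genes passed the test, as did 53.7% of all tested genes.

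Along the cluster the differences did not form a single block. Of the 45 annotated genes 16 were in the table and 12 were tested, and for 7 of the 12 all ultrasound values lay above all controls, beside 25.9% of all tested genes. Of these 7, Ly6a2, Ly6c1 and Ly6e were chosen on these values, and Ly6g and Ly6i entered through the ultrasound libraries. Them6, near the start of the cluster, differed by 0.22 and Gm39556, a non-coding RNA before Ly6e, by 0.65 on the log2 scale. Ly6c2, at 0.17, lies between Ly6c1, at 1.04, and Ly6a2, at 2.65, its neighbours among the tested genes. The Ly6a2 and Ly6c2 promoter windows matched at 98.3% of aligned bases, and the control levels of these genes were 1.91 and 370.1 FPKM.

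**Figure D4:**
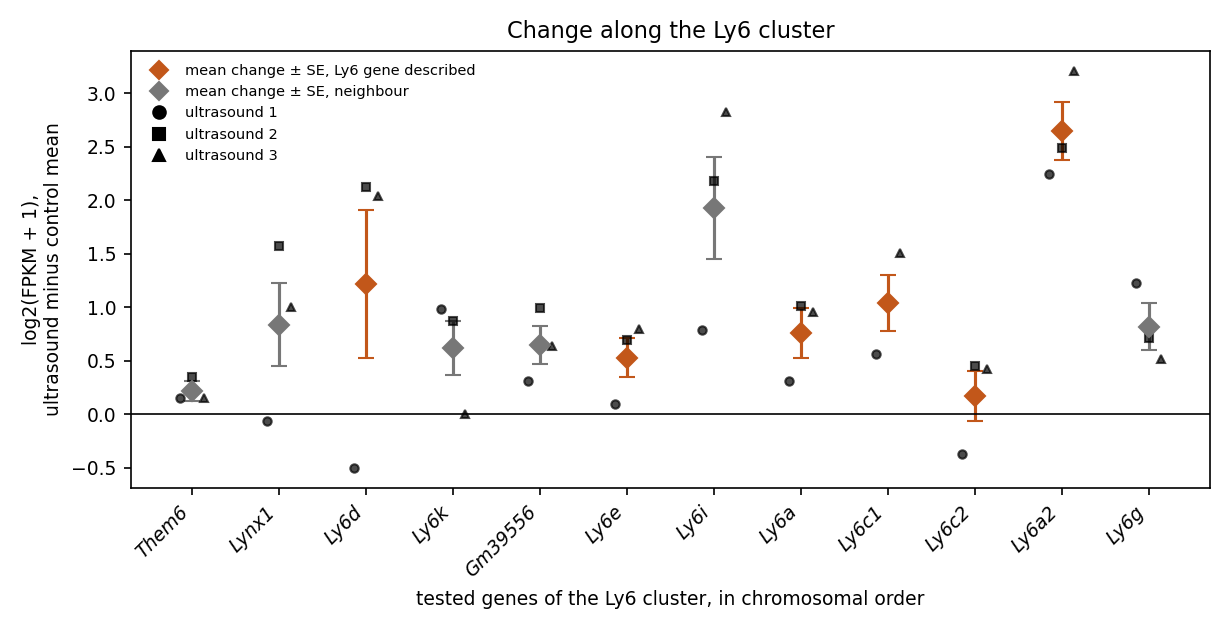
Log2(FPKM + 1) difference from the control mean (y axis) for the 12 tested genes of the Ly6 cluster in chromosomal order (x axis); diamonds and whiskers give the mean difference ± SE, orange for the 6 Ly6 genes and grey for neighbours, and black marks the 3 ultrasound libraries. Ly6c2, at 0.17, stands between Ly6c1 at 1.04 and Ly6a2 at 2.65, and Ly6d has the widest spread.

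The genes whose levels were most like each Ly6 gene over the 6 libraries were found by Pearson's r of log2(FPKM + 1), which reflects the shared difference between groups and libraries and is given without a test. Ly6d was closest to Cd79a (0.999), followed by Sap18b and Rnf135 (0.998 each). Ly6a was closest to Gm15987 (0.999), Gsn, which encodes the actin-severing protein gelsolin (0.998), and Atox1, a copper chaperone (0.998). Ly6a2 was closest to Nthl1, a DNA glycosylase (0.999), Ampd3, an AMP deaminase, and Ptpro, a receptor phosphatase (0.998 each). Ly6c1 was closest to Zfp384 (0.997), Nckipsd and Pbx2 (0.996 each), Ly6c2 to Wdcp, Fam78a and Aldh4a1 (0.992 each), and Ly6e to Rhog, a small GTPase, Wsb2 and Ttc39c (0.998 each). With 6 libraries such values are common: 920 genes exceeded 0.95 with Ly6e, 633 with Ly6a2, 455 with Ly6a, 401 with Ly6d, 341 with Ly6c1 and 120 with Ly6c2.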

How the data were processed

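RNA-seq values of 6 libraries (3 control, 3 ultrasound, grouped by their titles) came from the authors' full table. The authors' deposited FPKM values per library were used for all levels. Per the file headers, the same table gives a signal computed by the authors with DESeq2, namely averages of normalized counts for each group and for both together. Per the file headers it also holds the authors' fold change (a ratio), log2 fold change, p-value and q-value. The submitters' processing notes name, for the authors' work, HISAT2, HTSeq, DESeq2, R 3.2.0 and mm10 without roles, and coordinates here are RefSeq's for GRCm38.p6. The library kit is VAHTS Universal, whose version differs between the extraction protocol and the design text. RNA integrity values and the handling of reads that match several genes are not given in the sources used here.

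Whole reads per gene were recovered from the FPKM columns and group means (largest relative deviation 6.27e-07), and 100% of 64001 values lay within 0.05 of a whole number. The table held no column of counts, and edgeR was not run. A gene was tested if its FPKM reached 1 in at least 3 libraries. The test was limma 3.58.1 (trend, robust; R 4.3.3) on log2(FPKM + 1), two-sided, with Benjamini-Hochberg adjustment over 10655 genes and a threshold of 0.05. Voom was run on the recovered reads. The pipeline was tested on simulated data. Reads carry no molecular identifiers. Python 3.11.15, numpy 2.4.6, pandas 2.3.3, Biopython 1.88 and matplotlib 3.10.9 were used for the rest.

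The 6 genes and all gene lists were chosen with earlier results of these data known. Named genes are the 6, all tested genes of the wider family, up to 3 called and non-overlapping genes per direction of each function list, the 3 genes most like each Ly6 gene, and markers beside the result they move with. Cd44, Gzmb, Eomes and Klrd1 are outside that rule and are marked as such. Them6 and Gm39556, tested neighbours in the Ly6 cluster, and the untested Ly6h, Lypd1 and Lypd6 are also outside it. Replicate numbers did not pair the libraries (correlation of same-numbered deviations -0.04, 0.05 and 0.06). Alternatives covered scaling, filter, pseudocount, robustness, a replicate block, voom, the authors' values and libraries left out.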

Additional observations from a re-analysis of the deposited data

Results flagged for a closer look

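Reads appeared in ultrasound libraries for 3 family genes that were too low to be tested and had 0 reads in all 3 controls. A count of 0 allows up to 3 reads. Ly6h, a neuronal member at the end of the Ly6 cluster, had 40 reads in ultrasound 2 and 2 in ultrasound 3. Lypd1, a modulator of acetylcholine receptors, had 15 reads in ultrasound 2 and 1 in ultrasound 3. Lypd6, which acts on Wnt signalling, had 8 reads in ultrasound 2 and 1 in ultrasound 1. All 3 were thus above that limit in 1 library, ultrasound 2.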

How the results depend on the processing

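The count of called genes depended on the libraries and on the fit. It was 864 with all 6 libraries, 5727 without ultrasound 1, 567 without control 1 and 0 without any other single library, where 1962 to 2154 genes had an unadjusted p under 0.05, so leaving out each library gave 0 to 5727. It was 0 without the filter on low values (4216 at an unadjusted p under 0.05), 0 with a replicate block (3249 unadjusted), 468 with median-of-ratios factors, 49 without ultrasound 2 and 3, and 1745 in the authors' deposited table. Other settings gave 614 to 889. The share of called genes that were higher was 80.8%, against 60.0% with median-of-ratios factors (281 higher, 187 lower), 69.2% with upper-quartile factors (431, 192) and 52.8% in the authors' table (921, 824). Over single libraries left out, the log2 difference ranged from 0.63 to 0.99 for Ly6a, 2.37 to 2.85 for Ly6a2, 0.81 to 1.28 for Ly6c1, 0.03 to 0.44 for Ly6c2, 0.77 to 2.08 for Ly6d and 0.39 to 0.75 for Ly6e. Without ultrasound 2 and 3 it was 0.31 for Ly6a, 0.56 for Ly6c1, 0.10 for Ly6e, and reversed to -0.37 for Ly6c2 and -0.50 for Ly6d. Ly6a2 was at 3.13 with a pseudocount of 0.1, 3.19 by voom and 3.10 in the authors' table. The calls of the lists were 0 for the wider family, 1 for interferon, 5 for memory and effector, 1 for naive and 1 for anchor assembly genes. With a replicate block, without the filter, and without ultrasound 2 and 3 the last 4 lists had 0, and the family had 1 without ultrasound 2 and 3. In the authors' table the 5 lists had 2, 3, 11, 8 and 3, and over single libraries left out 0 to 4, 0 to 8, 0 to 18, 0 to 10 and 0 to 12. Memory and effector genes had 3 with median-of-ratios or upper-quartile factors. Naive genes had 2 by voom, the family had 1 with a pseudocount of 0.1, and anchor assembly had 0 under voom, both scalings, that pseudocount and a filter of FPKM 5. The cause was not tested. The median of the CD8 T cell markers turned from 0.06 to -0.07 with median-of-ratios factors. The limit of 3 reads for a count of 0 covers counting error only. Standard errors come from the limma fit, which moderates the spread of a gene between libraries by that of all tested genes. For a gene with uneven libraries they can be smaller than its own spread gives. The lowest library of Ly6a2 had 48 reads.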
